A study of Mus musculus with 32 samples.

Results

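The 10 genes described here carry interleukin 6 signalling into the liver cell: the ligand Il6, the receptor chains Il6ra, Il6st, Osmr and Lifr, the kinases Jak1 and Jak2, the transcription factor Stat3 and the feedback inhibitors Socs1 and Socs3. They were taken by name, and all 10 were measured among the 22180 genes of the arrays. Interleukin 6 binds the receptor encoded by Il6ra, and the pair then engages gp130, the signalling chain encoded by Il6st, which oncostatin M and leukemia inhibitory factor also use together with the chains encoded by Osmr and Lifr. Janus kinases bound to these chains phosphorylate STAT3, which enters the nucleus and, in hepatocytes, drives genes of the acute phase response. SOCS3 is induced by STAT3 and shuts the pathway off by binding gp130 and the kinases. The arrays measured messenger RNA and not the phosphorylation of STAT3.

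Liver RNA came from 14-week-old male wild-type C57BL/6NTac mice, with 1 Affymetrix Mouse Gene 2.1 ST array for each of 32 mice, all fasted for 10 h before gavage. The 4 groups were 9 palm oil clamped, 7 control clamped, 9 palm oil basal and 7 control basal mice. Palm oil mice received 2 g/kg of palm oil by gavage, and control mice received water. Basal livers were taken 6 h after the gavage under isoflurane. Clamped mice had a jugular vein catheter placed under ketamine and xylazine 6 to 7 days earlier. From 6 h after the gavage they received labelled glucose for 110 min and then insulin at 15 pmol/kg/min with blood glucose held at a target, and were killed with ketamine and xylazine. Clamped minus basal therefore covers insulin, surgery, infusion, anaesthetic and a later sampling time, which cannot be told apart. Clamped mice carried the animal numbers 15 to 32 and basal mice 33 to 52. The labels do not say what the number marks, and whatever goes with it cannot be told apart from the clamp either.

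Array medians lay between 1.65 and 1.77 log2 units, and the number of arrays limits the precision. Hepatocyte markers were present on every array, with a mean over 8 genes of 9.80 to 9.94 in palm oil clamped and 9.80 to 9.97 in control clamped mice, against 9.39 to 9.74 in palm oil basal and 9.47 to 9.82 in control basal mice. Of these 8, 2 rose with the clamp in palm oil and 3 in control mice, Tat and Hnf4a in each. All 8 had a mean above the median gene. Of all genes above it, 14.2% passed the clamp test in palm oil and 16.5% in control mice, in either direction. Among basal arrays, the 7 from animal 44 onward (3 palm oil and 4 control) had narrower interquartile ranges (2.44 to 2.54) than the other 9 basal arrays (2.72 to 2.96). The 7 are called late or later below, and the 9 earlier, by their number alone. Pancreatic acinar markers averaged over 6 log2 units on 12 arrays, 3 of 16 clamped and 9 of 16 basal ones. Each call on the 10 genes that leaving out either set of arrays ended is given with and without them. Neutrophil markers were higher on the clamped arrays. The sum of their log2 values over 8 genes was 26.8 to 34.4 in palm oil clamped and 24.5 to 35.4 in control clamped mice. It was 15.3 to 19.4 in palm oil basal and 15.3 to 21.3 in control basal mice. Of the 8 neutrophil genes, 7 rose in both comparisons, and Ly6g did not pass. In this list 7 of the 8 had a mean above the median gene. Of 9 Kupffer cell markers, all with a mean above the median gene, 2 rose in palm oil mice and 3 in control mice. The shares of 14.2% and 16.5% apply to them as well. Marco, a scavenger receptor of macrophages, rose by 1.65 ± 0.30 and 1.62 ± 0.34, the largest differences of the 9. The median difference over the 9 was only 0.12 in palm oil and 0.10 in control mice. It was above 0 for 7 of the 9 markers in palm oil and for 6 in control mice. Clec4f and Cd5l had lower means in clamped than in basal mice under both treatments. The sum of the log2 values of the 9 Kupffer markers was 49.7 to 54.3 in palm oil clamped and 47.8 to 54.8 in control clamped mice. It was 46.1 to 51.2 in palm oil basal and 45.8 to 49.4 in control basal mice. In bulk tissue, more cells of a type and more RNA per cell cannot be told apart. Leukocytes also express Socs3, Il6ra and Stat3, and the part of neutrophils, Kupffer cells and hepatocytes in the results was not tested.

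The promoters of Socs3, Stat3 and Osmr are shown because these are the genes that rose in both clamp comparisons with the largest differences. A STAT motif (TTCNNNGAA, which reads the same on both strands) is in capitals where a promoter holds it. The sequences run from 250 bases before to 50 bases after a listed transcript start and are those of RefSeq on GRCm38.p6, which listed promoters for all 10 genes. That start lies 970 bases inside the outermost position of the gene for Socs3, 54 for Stat3 and 655 for Osmr.
Socs3 (chr11:117969317-117969616, minus strand): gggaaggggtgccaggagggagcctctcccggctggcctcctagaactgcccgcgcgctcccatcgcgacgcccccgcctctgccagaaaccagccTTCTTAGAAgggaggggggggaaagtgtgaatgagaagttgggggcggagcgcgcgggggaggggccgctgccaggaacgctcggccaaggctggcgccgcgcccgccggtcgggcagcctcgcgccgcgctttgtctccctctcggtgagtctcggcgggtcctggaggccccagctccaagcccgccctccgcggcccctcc
Stat3 (chr11:100939491-100939790, minus strand): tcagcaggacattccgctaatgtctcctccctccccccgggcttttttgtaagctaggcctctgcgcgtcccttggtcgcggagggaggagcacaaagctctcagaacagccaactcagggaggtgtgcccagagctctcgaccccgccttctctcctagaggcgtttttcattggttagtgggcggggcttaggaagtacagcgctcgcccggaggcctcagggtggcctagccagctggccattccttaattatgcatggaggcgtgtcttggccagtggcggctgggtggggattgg
Osmr (chr15:6874264-6874563, minus strand): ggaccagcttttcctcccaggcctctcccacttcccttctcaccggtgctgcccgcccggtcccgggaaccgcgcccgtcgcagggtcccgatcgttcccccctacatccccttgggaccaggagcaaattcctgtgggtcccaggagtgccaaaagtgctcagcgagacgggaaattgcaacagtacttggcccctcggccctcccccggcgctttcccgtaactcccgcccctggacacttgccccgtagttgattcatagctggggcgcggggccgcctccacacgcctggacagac

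Among the 10 genes the promoter of Socs3 alone held a STAT motif in this window, TTCTTAGAA, with its first base 154 bases before the listed start. The motif was in 8.30% of all 32851 promoters of that length in the table. An AP-1 motif (TGANTCA, read on both strands) was found in the promoters of Il6 and Osmr and in 7.81% of all promoters. A cyclic AMP response element (TGACGTCA) was found in that of Jak1 and in 1.79% of all. A match says only that the letters are present, and no match says nothing of sites outside the window.

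The first comparison set clamped against basal livers under each gavage. Socs3, Stat3, Osmr and Jak1 rose in palm oil and in control mice, Il6ra passed the test in palm oil mice, and Il6st passed it in control mice. Socs3, by the brighter of its 2 probe sets, had 3.95-fold in palm oil and 4.76-fold in control mice, the largest differences among the 10 genes on that probe set. Il6, Lifr, Jak2 and Socs1 did not pass in either comparison. The count was 5 of 10 genes in palm oil mice, where 7.57% of all genes were called, and 5 of 10 in control mice, where 8.75% were called. The brighter part of the genes, those with a mean above the median gene, held 9 of the 10, the dim Socs1 among them. The nearer background is therefore 14.2% in palm oil and 16.5% in control mice. All called members were higher in clamped mice, and over all genes 3.76% were called higher and 3.80% lower in palm oil mice, and 4.66% higher and 4.09% lower in control mice. A call means an adjusted p under 0.05 in a limma fit over all genes, differences are in log2 units, and values after ± are standard errors unless SD is written.

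**Figure D1:**
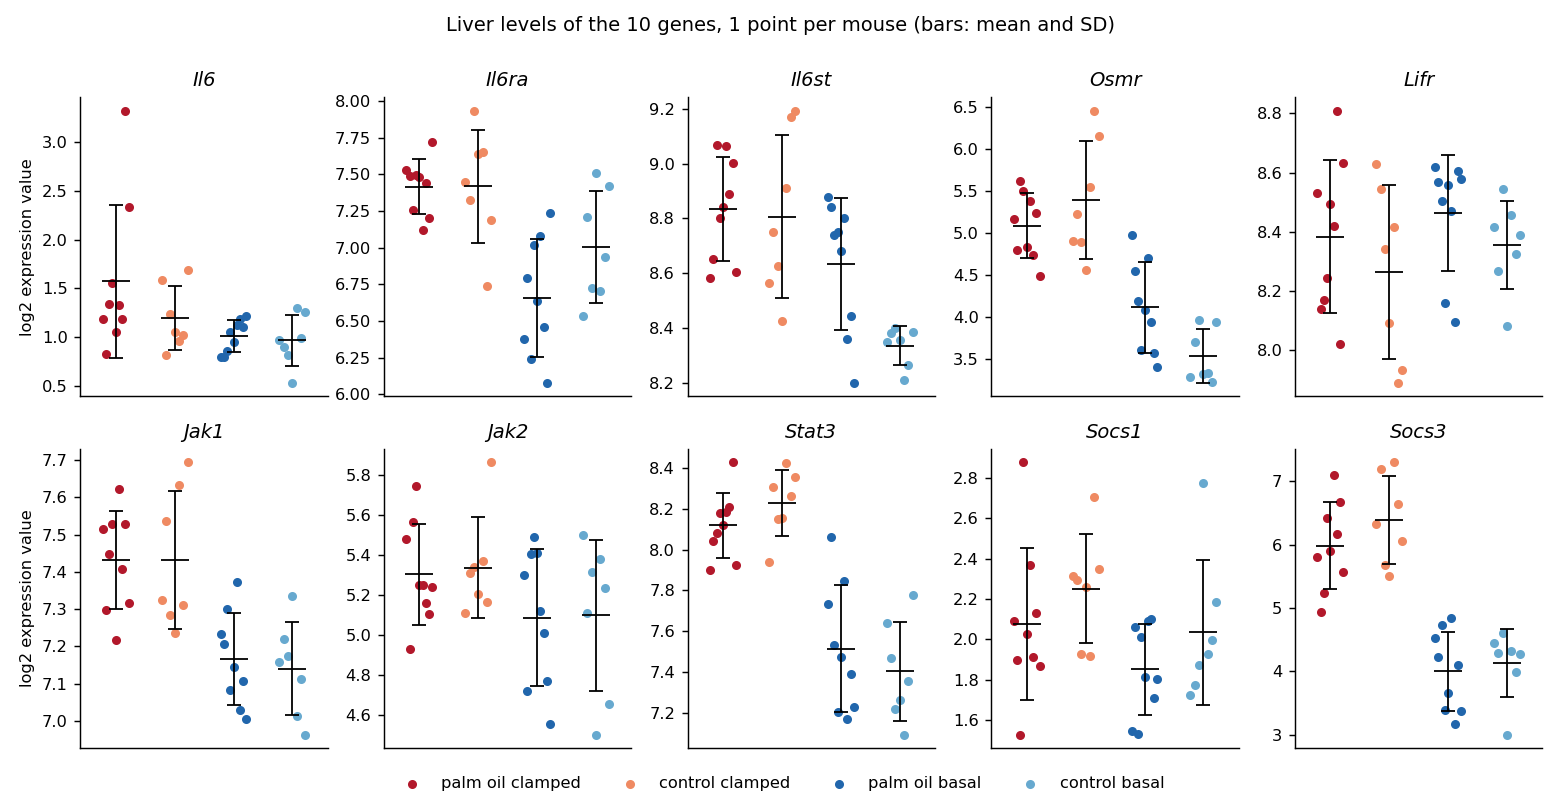
Log2 expression value of each of the 10 genes (1 panel per gene, with its own scale) in the 4 groups, with 1 point per mouse and bars for the mean and SD. For the brighter probe set of Socs3 every clamped mouse lies above every basal mouse of the same gavage, and Il6 is dim in all groups, with 1 palm oil clamped mouse at 3.32.

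Il6 encodes the ligand, made mainly by macrophages and other non-parenchymal cells. Its lowest, median and highest values were 0.83, 1.33 and 3.32 in palm oil clamped mice, 0.82, 1.06 and 1.69 in control clamped mice, 0.79, 1.05 and 1.21 in palm oil basal mice and 0.53, 0.97 and 1.3 in control basal mice. The medians lay below the array medians, so that the signal was near the floor of the array and its differences are compressed. Clamped minus basal was 0.56 ± 0.21 in palm oil mice (adjusted p = 0.0980) and 0.23 ± 0.23 in control mice (adjusted p = 0.652). The palm oil value was 0.35 without palm oil clamped replicate 8, the highest array, and 0.66 without palm oil clamped replicate 2 (adjusted p = 0.0442).

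Il6ra encodes the receptor chain that binds interleukin 6. Its lowest, median and highest values were 7.12, 7.48 and 7.72 in palm oil clamped mice, against 6.08, 6.63 and 7.24 in palm oil basal mice, and 7 of the 9 clamped mice lay above every basal mouse. The difference was 0.76 ± 0.16 (1.69-fold, adjusted p = 0.00119). In control clamped mice the values were 6.74, 7.45 and 7.93, against 6.53, 6.94 and 7.51 in control basal mice, and the groups overlapped more widely, with 3 of 7 above. There the difference was 0.41 ± 0.18 (95% interval 0.05 to 0.77, adjusted p = 0.162).

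Il6st encodes gp130, the chain shared by the family. It had 8.43, 8.75 and 9.19 in control clamped mice, against 8.21, 8.36 and 8.40 in control basal mice, with no overlap. The difference was 0.47 ± 0.12 (1.39-fold, adjusted p = 0.00869). Palm oil clamped mice had 8.58, 8.84 and 9.07, against 8.20, 8.74 and 8.88 in palm oil basal mice. These groups overlapped, and the difference was 0.20 ± 0.11 (95% interval -0.01 to 0.41, adjusted p = 0.315). Against the 3 palm oil basal mice numbered 44 or higher alone it was 0.50 (adjusted p = 0.0319), against the 6 under 44 it was 0.05, and without the 12 acinar arrays it was 0.06. In control mice the call was lost without the 7 late basal arrays (0.43, adjusted p = 0.0898), with that split as a block (0.31, adjusted p = 0.143) and without the 12 acinar arrays (0.51, adjusted p = 0.0682).

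Osmr encodes the oncostatin M receptor chain. Its lowest, median and highest values were 4.50, 5.17 and 5.62 in palm oil clamped mice, against 3.40, 4.08 and 4.98 in palm oil basal mice, with 5 of 9 clamped mice above every basal one. The difference was 0.97 ± 0.22 (1.96-fold, adjusted p = 0.00358). In control clamped mice the values were 4.56, 5.23 and 6.46, against 3.23, 3.33 and 3.97 in control basal mice, without overlap, and the difference was 1.86 ± 0.25 (3.62-fold, adjusted p = 4.21e-06). In palm oil mice the call was lost without the 7 late basal arrays (0.73, adjusted p = 0.0870) and without the 12 acinar arrays (0.89, adjusted p = 0.121). Lifr, the chain for leukemia inhibitory factor, differed by -0.08 ± 0.11 in palm oil mice (95% interval -0.30 to 0.15) and by -0.09 ± 0.13 in control mice (95% interval -0.35 to 0.17).

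Jak1, the main kinase of gp130 signalling, rose by small amounts. It had 7.22, 7.45 and 7.62 in palm oil clamped mice, against 7.01, 7.15 and 7.37 in palm oil basal mice, and 7.24, 7.32 and 7.69 in control clamped mice, against 6.96, 7.16 and 7.33 in control basal mice. Groups overlapped under both treatments. The differences were 0.27 ± 0.08 in palm oil mice (1.20-fold, adjusted p = 0.0295) and 0.29 ± 0.09 in control mice (1.22-fold, adjusted p = 0.0334). Both calls were lost without the 7 late basal arrays (0.21, adjusted p = 0.177, and 0.25, adjusted p = 0.247) and without the 12 acinar arrays (0.24, adjusted p = 0.327, and 0.28, adjusted p = 0.245). They were also lost with the replicate number or the split at animal 44 as a block. Leaving out single arrays ended them too, for palm oil basal replicates 4, 7 and 9 and palm oil clamped replicates 1, 4, 6 and 8 (lowest 0.24), and for control basal replicates 5, 6 and 7 and control clamped replicates 2, 5 and 7 (lowest 0.25). Jak2 differed by 0.22 ± 0.14 in palm oil mice (95% interval -0.07 to 0.50) and by 0.24 ± 0.16 in control mice (95% interval -0.09 to 0.56).

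Stat3 rose in clamped mice under both treatments. Its lowest, median and highest values were 7.90, 8.12 and 8.43 in palm oil clamped mice, against 7.17, 7.47 and 8.06 in palm oil basal mice, with 6 of 9 clamped mice above every basal one. In control clamped mice they were 7.94, 8.26 and 8.42, against 7.09, 7.36 and 7.78 in control basal mice, without overlap. The differences were 0.60 ± 0.11 (1.52-fold, adjusted p = 2.86e-04) and 0.82 ± 0.13 (1.77-fold, adjusted p = 2.36e-05).

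On its brighter probe set Socs3, the feedback inhibitor, had 4.94, 5.90 and 7.10 in palm oil clamped mice, against 3.17, 4.10 and 4.84 in palm oil basal mice. In control clamped mice it had 5.50, 6.33 and 7.30, against 3.00, 4.29 and 4.61 in control basal mice. Neither pair of groups overlapped. The differences were 1.98 ± 0.28 in palm oil mice (adjusted p = 6.59e-06) and 2.25 ± 0.32 in control mice (adjusted p = 7.44e-06). By mean level the order was control clamped, palm oil clamped, control basal and palm oil basal mice, and neither neighbouring pair of the same clamp state differed past the test. The dimmer probe set gave 1.15 in palm oil mice (adjusted p = 0.00134) and 1.78 in control mice (adjusted p = 2.38e-05), the second below the 1.86 of Osmr. On it the palm oil groups overlapped, with a lowest clamped value of 2.48 and a highest basal value of 2.98, and the control groups did not. Socs1, a related inhibitor, was dim and differed by 0.23 ± 0.14 in palm oil mice (95% interval -0.07 to 0.52) and by 0.22 ± 0.16 in control mice (95% interval -0.11 to 0.55).

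Groups that did not overlap were those of Socs3 on its brighter probe set in palm oil mice, 1 of 10 genes against 1.45% of all genes (0.866% with clamped mice higher). In control mice they were those of Il6st, Osmr, Stat3 and Socs3, 4 of 10 genes against 2.55% of all (1.39% with clamped mice higher). The difference between the comparisons was tested as an interaction, in which none of the 10 genes and 0% of all genes passed. The interaction was -0.88 ± 0.34 for Osmr (95% interval -1.57 to -0.20, unadjusted p = 0.0129, adjusted p = 1.00), 0.35 ± 0.24 for Il6ra, -0.27 ± 0.16 for Il6st, -0.22 ± 0.17 for Stat3 and -0.27 ± 0.42 for Socs3. It was 0.34 ± 0.31 for Il6 and within 0.03 of 0 for Lifr, Jak1, Jak2 and Socs1. A different response under palm oil was thus not shown for any of them.

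**Figure D2:**
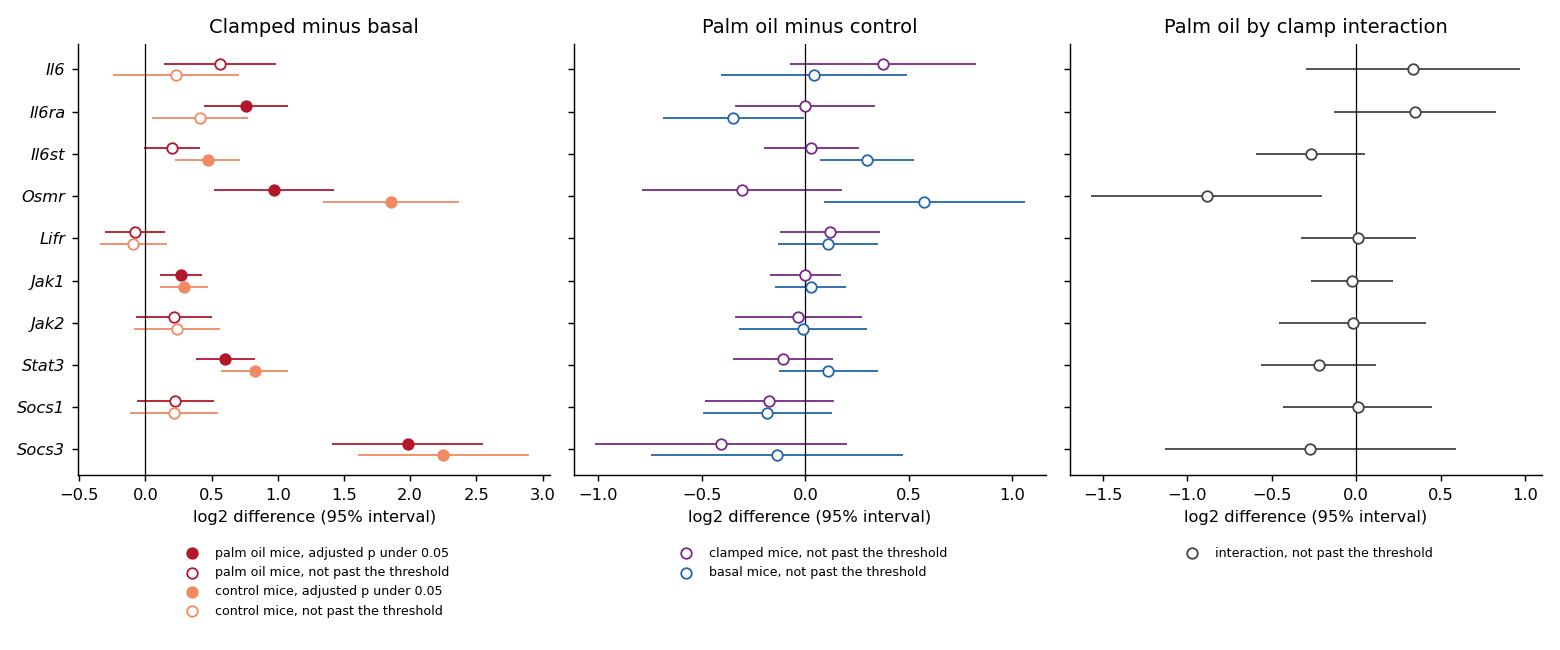
Log2 differences with 95% intervals for the 10 genes, for clamped minus basal, for palm oil minus control and for the interaction, with filled points where the adjusted p is under 0.05. Filled points lie in the clamp panel alone, at 0.27 to 1.98 in palm oil mice and 0.29 to 2.25 in control mice.

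Whether palm oil itself moved these genes was asked in clamped and in basal mice. None of the 10 genes differed past the test in either, against 0% of all genes in each comparison. In clamped mice the differences ran from -0.41 ± 0.30 for Socs3 (95% interval -1.01 to 0.20) to 0.38 ± 0.22 for Il6 (-0.07 to 0.82), with Stat3 at -0.11 ± 0.12 and Osmr at -0.31 ± 0.24. Socs3 was at -0.67 on its dimmer probe set, not past the test, and Il6 was at 0.16 without palm oil clamped replicate 8. In basal mice they ran from -0.35 ± 0.17 for Il6ra (-0.69 to -0.01) to 0.58 ± 0.24 for Osmr (0.09 to 1.06), and Il6st had 0.30 ± 0.11 (0.07 to 0.53). These last 3 had unadjusted p values of 0.0449, 0.0211 and 0.0123, with adjusted p values of 0.966, 0.960 and 0.960. By limma, 781 of 22180 genes had an unadjusted p under 0.05 in clamped and 1134 in basal mice. Chance alone gives about 1 in 20 genes at that threshold. With the dimmer Socs3 probe set in place of the brighter the count in clamped mice was 782. The exact rank sum test called 0 genes in either, with 723 in clamped and 774 in basal mice at an unadjusted p under 0.05. Basal Stat3 differed by 0.11 ± 0.12 and Socs3 by -0.14 ± 0.30. Without the 12 acinar arrays Stat3 was at 0.44 (adjusted p = 0.404) and Socs3 at 0.24, a turned sign, and Il6st was at 0.48, none past the test. That fit left palm oil basal animals 33, 35, 37 and 39, all under 44, against control basal animals 40, 44 and 46. Leaving out acinar arrays therefore cannot be told apart here from the split at animal 44.

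The basal differences of Il6ra, Il6st and Osmr had different sizes in the earlier and later basal mice. For Il6ra the palm oil difference was -0.13 in those numbered under 44 and -0.55 at 44 or higher. Il6st had 8.68 to 8.88 in the 6 palm oil basal mice numbered under 44, above every other basal mouse, and 8.20 to 8.44 in the 3 numbered 44 or higher. The control basal mice had 8.35 to 8.40 in the 3 under 44 and 8.21 to 8.39 in the 4 at 44 or higher. The palm oil difference was therefore 0.41 under 44 and 0.03 at 44 or higher, neither past the test. For Osmr it was 0.70 under 44 and 0.18 at 44 or higher, likewise not past it. Palm oil basal mice had 3.61 to 4.98 under 44 and 3.40 to 3.95 above, against 3.28 to 3.97 and 3.23 to 3.94 in control basal mice. Whether the 2 parts of the basal mice differ in this was not tested.

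**Figure D3:**
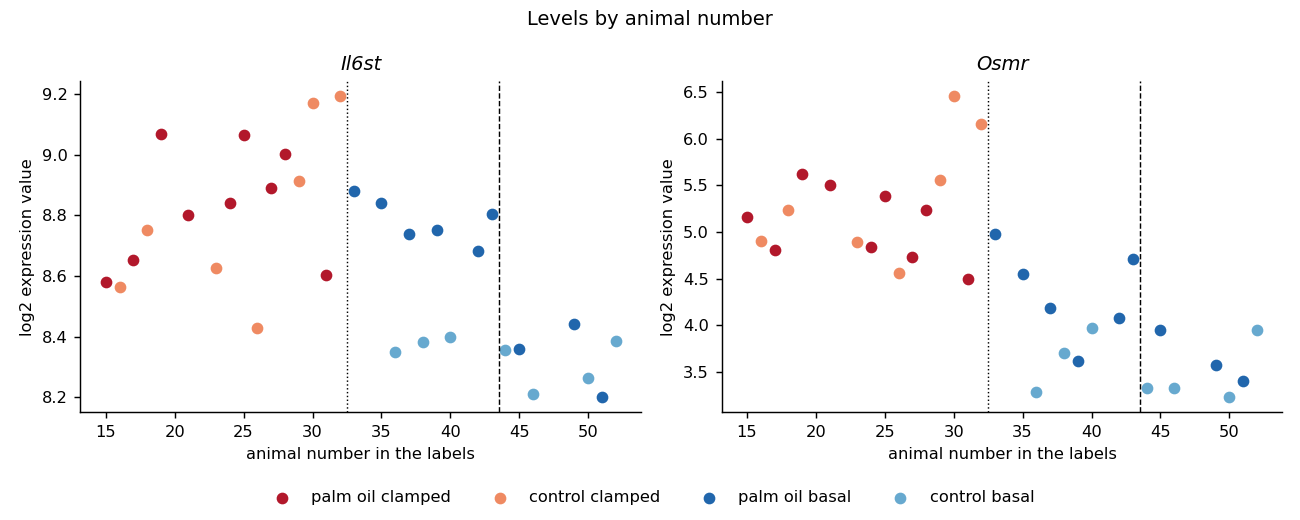
Log2 expression value of Il6st and Osmr against the animal number in the labels, coloured by group, with a dotted line between clamped and basal mice and a dashed line before animal 44. For Il6st the 6 palm oil basal mice under 44 lie at 8.68 to 8.88 and the 3 from 44 on at 8.20 to 8.44, among the control basal mice.

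Of the 45 pairs among the 10 genes, Il6st and Osmr went together most closely over mice. With group means removed, their Pearson r over 32 arrays was 0.81 and Spearman rho 0.77, with r = 0.86 in the 16 clamped and 0.75 in the 16 basal arrays. This pair was chosen after its values were seen, so no p is given, and with the means of the earlier and later basal arrays removed as well r was 0.78. The relation of Socs3 to Stat3 and to Il6 was the one laid down for testing, as 2 relations. Socs3 and Stat3 had a Pearson r of 0.54 (permutation within groups, p = 0.00162, adjusted over both 0.00324) and a Spearman rho of 0.61 (p = 4.30e-04, adjusted 8.60e-04) over 32 arrays. Without the 2 arrays farthest from the median of Socs3, r was 0.55. Within the 16 clamped arrays r was 0.58 (permutation p = 0.0235, adjusted 0.0471) and within the 16 basal arrays it was 0.57 (permutation p = 0.0300, adjusted 0.0601). Socs3 and Stat3 were both lower in the later palm oil basal mice, with means of 3.55 and 7.26 at 44 or higher, against 4.23 and 7.64 under 44. With the means of these parts removed as well, an alternative added after the data were seen, r over 32 arrays was 0.48 (permutation p = 0.00931, adjusted 0.0186). Within the 16 basal arrays it was then 0.45 (permutation p = 0.150, adjusted 0.242), and 0.22 without the 2 farthest. A relation among basal mice within these parts was thus not shown, and 16 arrays are too few to show its absence. Socs3 and Il6 had r = 0.12 (permutation p = 0.564, adjusted 0.564) and rho = -0.05 (p = 0.776, adjusted 0.776), and r = -0.04 without the 2 farthest arrays.

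**Figure D4:**
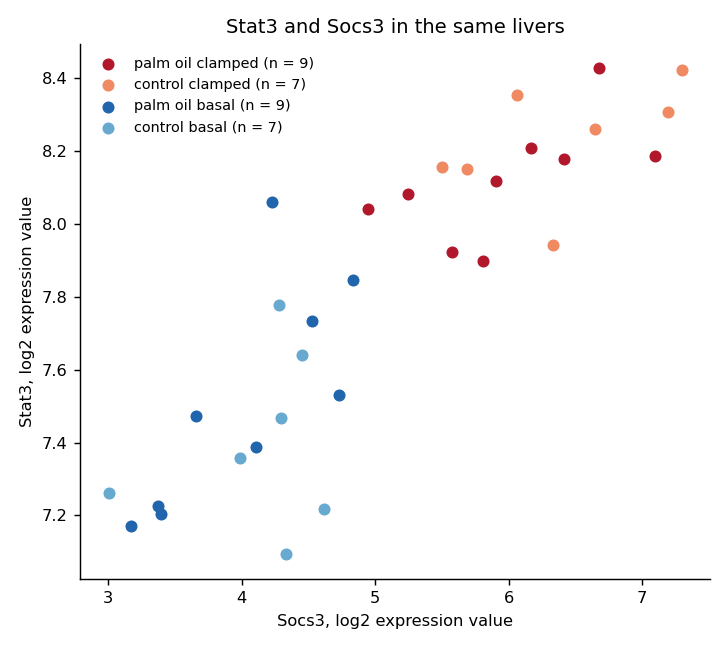
Log2 value of Stat3 against that of Socs3 in the same liver, 1 point per mouse, coloured by group. Clamped mice lie at upper right, with Socs3 from 4.94 to 7.30, and basal mice at lower left, with Socs3 from 3.00 to 4.84, and within groups r was 0.54.

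The wider pathway was counted by lists, some of which also hold members of the 10, so that calls given above are counted again. Counts from all 32 arrays are to be read against the 7.57% of all genes called in palm oil and 8.75% in control mice. Among the brighter genes the shares were 14.2% and 16.5%. The lists were also counted without the 7 late basal arrays and without the 12 acinar arrays, which leaves fewer mice. Without the late arrays 5.82% of all genes were called in palm oil and 4.63% in control mice. Without the acinar arrays the shares were 3.32% and 4.48%. Of 11 listed ligands of the gp130 family 9 were measured, Il6 among them, 7 of which were in the dimmer part of the genes. In clamped minus basal, 1 rose in palm oil mice and 0 in control mice. It was Il27, a subunit of interleukin 27, at 0.62 ± 0.18 in palm oil (adjusted p = 0.0235) and 0.05 ± 0.20 in control mice, with a mean of 1.53 over all arrays, and it was lost in both of these counts (0.51, adjusted p = 0.182, and 0.41, adjusted p = 0.541). Clcf1, a cardiotrophin-like cytokine, differed by -0.06 ± 0.14 and -0.34 ± 0.15, Ebi3, the other interleukin 27 subunit, by 0.22 ± 0.16 and 0.35 ± 0.18, and the cardiotrophin Ctf1 by -0.29 ± 0.17 and -0.05 ± 0.20, none past the test.

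Of 8 measured receptor chains, 6 of them among the brighter genes, 4 rose in palm oil and 3 in control mice, and none fell. Il6ra and Osmr were among those that rose in palm oil mice, and Il6st and Osmr among those in control mice. Without either set of arrays the counts were 2 in palm oil and 1 in control mice. Lepr, the leptin receptor, which also signals through STAT3, rose by 1.49 ± 0.28 in palm oil mice (adjusted p = 3.65e-04) and 1.24 ± 0.32 in control mice (adjusted p = 0.00901), a call lost in control mice without the late (adjusted p = 0.127) or the acinar arrays (adjusted p = 0.261). Cntfr, the chain for ciliary neurotrophic factor, rose by 0.46 ± 0.12 in palm oil mice (adjusted p = 0.0177; 0.0527 without the late and 0.375 without the acinar arrays) and had 0.13 ± 0.14 in control mice. The dim chains Il31ra and Il27ra differed by less than 0.1 in each. Of 3 measured Janus kinases, all among the brighter genes, Jak1 alone was called under either treatment, and Tyk2 differed by -0.20 ± 0.12 and -0.16 ± 0.13. Of 6 measured STAT genes, 5 of them among the brighter genes, Stat3 alone was called under either treatment. Stat5b, which serves growth hormone, differed by 0.05 ± 0.13 and 0.22 ± 0.15, and Stat2, of interferon signalling, by -0.01 ± 0.12 and 0.21 ± 0.13. Stat4 had 0.15 ± 0.11 and -0.09 ± 0.12, and Stat5a had -0.15 ± 0.12 and 0.05 ± 0.14.

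In the SOCS family, all 8 of which lay among the brighter genes, 4 rose in palm oil and 2 in control mice, and none fell. Socs3 was among the genes that rose under each treatment. Without the late arrays 3 rose in palm oil and 1 in control mice, and without the acinar arrays 2 and 1. Socs2 was lost in palm oil mice without either set (adjusted p = 0.0989 and 0.194), and Socs4 in control mice without either (0.243 and 0.155) and in palm oil mice without the acinar arrays (0.137). Cish and Socs2, feedback inhibitors of growth hormone signalling, rose in palm oil mice by 1.33 ± 0.29 (adjusted p = 0.00258) and 1.35 ± 0.38 (adjusted p = 0.0241). In control mice they had 0.60 ± 0.33 (adjusted p = 0.313) and 0.52 ± 0.44 (adjusted p = 0.563), and their interactions of 0.73 ± 0.44 and 0.83 ± 0.58 did not pass. Socs4 rose by 0.46 ± 0.11 in palm oil mice (adjusted p = 0.00401) and 0.45 ± 0.12 in control mice (adjusted p = 0.0143), and Socs6 had 0.21 ± 0.09 and -0.03 ± 0.11. All 10 other attenuators and shedding proteases lay among the brighter genes, of which 14.2% were called in palm oil and 16.5% in control mice. Of these 10, 1 rose in palm oil mice, and 4 rose and 1 fell in control mice. Ptpn2, a phosphatase that acts on Janus kinases and STAT proteins, rose by 1.03 ± 0.18 (adjusted p = 1.24e-04) and 1.34 ± 0.20 (adjusted p = 2.02e-05). In control mice the phosphatase Ptpn1 rose by 0.82 ± 0.20 and the protease Adam17, which can shed the interleukin 6 receptor, by 0.52 ± 0.14, while Pias3, an inhibitor of STAT3, fell by 0.68 ± 0.17. Without either set of arrays 1 gene of this list was called under each treatment, Ptpn2, and these 3 were not. In palm oil mice these 3 had 0.50 ± 0.17, 0.26 ± 0.13 and -0.44 ± 0.15, none past the test.

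Genes known as targets of interleukin 6 and STAT3 in liver rose for 22 of 29 measured members in palm oil mice, with 0 falling. In control mice 23 rose and 1 fell. Of the 29, 27 lay among the brighter genes. Over all genes 3.76% rose in palm oil and 4.66% in control mice. Without the late arrays 20 rose in palm oil and 21 in control mice, and without the acinar arrays 14 and 21, with 0 falling in each. Their median difference was 0.61 in palm oil and 0.66 in control mice, against -0.02 over all genes in each. Many are acute phase genes already known to be high in these clamped livers, so that the count is not independent support. Il1r1, an interleukin 1 receptor, rose by 2.33 ± 0.16 and 2.15 ± 0.18, the transcription factor gene Junb by 2.45 ± 0.24 and 2.50 ± 0.27, the metalloreductase gene Steap4 by 2.09 ± 0.22 and 2.47 ± 0.25, and the protease inhibitor gene Serpina3n by 1.06 ± 0.11 and 1.13 ± 0.13. The gene that fell in control mice was Myc (-0.61 ± 0.19, adjusted p = 0.0379), named because it was that count, and not called without either set of arrays. It had 0.33 ± 0.17 in palm oil mice. No gene of these lists passed in palm oil minus control or in the interaction.

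**Figure D5:**
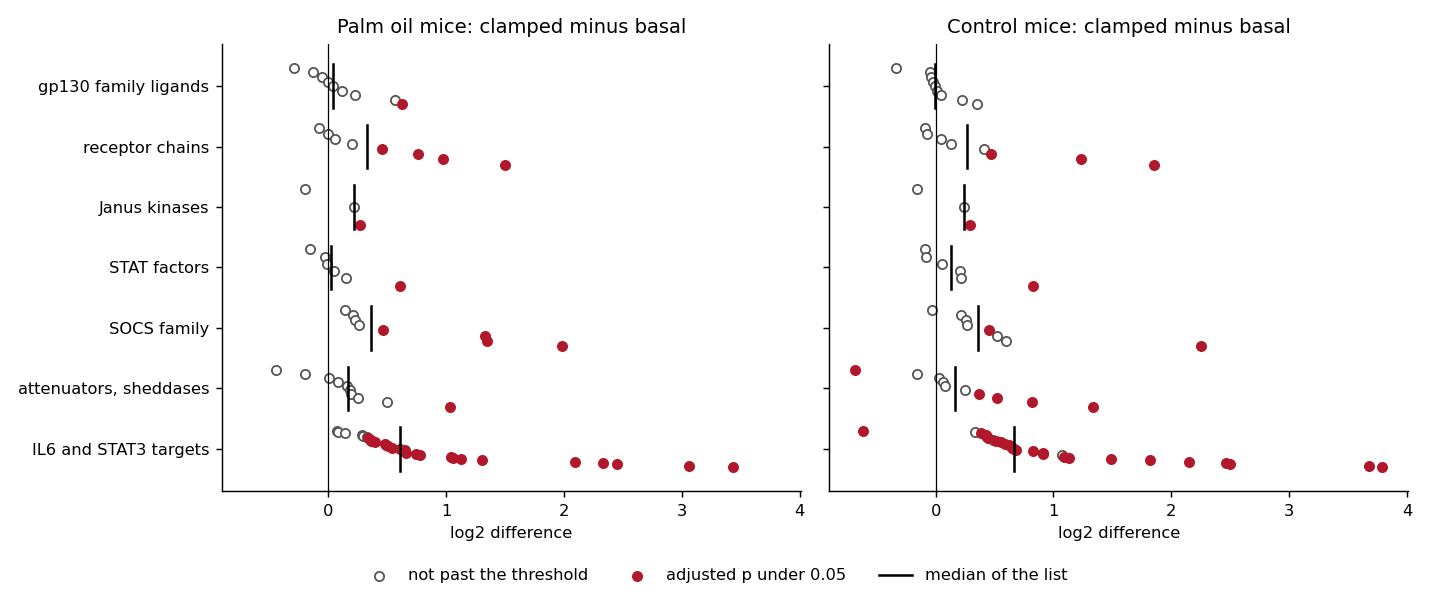
Log2 differences, clamped minus basal, of the measured genes of 7 lists of the pathway, with palm oil mice on the left and control mice on the right, filled where the adjusted p is under 0.05 and with a line at each list's median. The medians of the target list are 0.61 and 0.66, and the ligand list has medians of 0.04 in palm oil and 0.00 in control mice.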

How the data were processed

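The submitters' processing notes name Expression Console 1.3.0.187 and RMA, and the deposited log2 values were used without further normalization. RMA subtracts background, brings the arrays to a common distribution and gives 1 value per probe set, and it compresses low values. Of 41345 probe sets, 23521 had 1 gene symbol in the platform annotation, and the brightest set of each gene was taken, which left 22180 genes with no filter on low values. Groups came from the titles. limma 3.58.1 (R 4.3.3) was fitted to all 32 arrays with 1 mean per group (28 residual degrees of freedom) and 5 contrasts, with Benjamini-Hochberg adjustment over all genes, and was tested on simulated data. Relations over mice used 100000 permutations within groups (scipy 1.17.1). The members and lists were chosen with earlier results of these data known. The text names the 10 members, up to 4 further genes of each list with the smallest p in either clamp comparison, and the 3 genes most like each member. The ranking by likeness left out small RNAs and predicted, RIKEN or clone-named genes. The brighter part of the genes are those with a mean above the median gene. Alternatives were quantile normalization repeated, 1 median for all arrays, other probe set choices, the brighter part of the genes alone, array weights, other priors, an exact rank sum test, other thresholds, a fit to the compared groups only, the replicate number or the split at animal 44 as a block, and fits without single arrays or sets of arrays. Each array is 1 mouse.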

Additional observations from a re-analysis of the deposited data

Results flagged for a closer look

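In 2 of the 40 combinations of gene and group, 1 mouse stood far from the rest of its group, where chance gives about 1 in 20. Jak2 had 5.86 in control clamped replicate 7, with the next value at 5.37. Socs3 had 3.00 in control basal replicate 4, animal 44, with the next value at 3.99, and without it the control clamp difference of Socs3 was 2.06.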

How the results depend on the processing

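Socs3 and Stat3 were called in both clamp comparisons, Il6ra in palm oil mice and Osmr in control mice, under every alternative run. The count of called genes was 3 in palm oil and 3 in control mice without the 7 late basal arrays, and 3 in each without the 12 acinar arrays. Without the late arrays 5.82% of all genes were called in palm oil and 4.63% in control mice. Without the acinar arrays these shares were 3.32% and 4.48%, so calls over all genes fell as well. The count of called members was 3 in control mice with the split at animal 44 as a block, against 6.88% of all genes. This alternative was added after the data were seen. Leaving out 1 array gave 4 to 6 genes in palm oil mice and 4 to 5 in control mice, and 0 to 0 in palm oil minus control and in the interaction. The shares of all genes called were then 6.24% to 8.11% in palm oil and 6.84% to 9.05% in control mice. The causes were not tested. With the replicate number as a block 5 genes were called in palm oil and 4 in control mice, Jak1 being lost in each and Il6 gained in palm oil mice (0.56, adjusted p = 0.0371). Over all genes that fit called 7.34% in palm oil and 8.67% in control mice. The labels do not say what the replicate number marks, and within each group it rises with the animal number. Deviations of same-numbered arrays correlated between -0.36 and 0.36, and whether such arrays share a factor was not tested. In control mice the call of Jak1 was also lost with the exact rank sum test (adjusted p = 0.0916), array weights, quantile normalization repeated and a fit to the compared groups only. No called difference changed direction under any alternative. Dim genes such as Il6 and Socs1 are limited by signal near background.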

Other observations

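The genes most like each member over the 32 arrays, by Pearson r with group means removed, are given as a description. Small RNAs and predicted, RIKEN or clone-named genes were left out of this ranking. For Stat3 they were Nnmt (0.71), Fgg (0.71) and Slc41a2 (0.71), of which Nnmt, nicotinamide N-methyltransferase, and Fgg, the fibrinogen gamma chain, were on the list of interleukin 6 and STAT3 targets. For Socs3 they were Nrp1 (0.75), Adamts1 (0.71) and Tardbp (0.70). For Il6st they were Lpgat1 (0.85), Nos1ap (0.85) and Cpne8 (0.84), and for Osmr Slc11a2 (0.81), Il6st (0.81) and Cpne8 (0.81). For Il6ra they were Lpin1 (0.75), Slc29a1 (0.70) and N4bp2l1 (0.69), and for Jak1 Rhob (0.73), Iigp1 (0.71) and Kdm3b (0.68). For Lifr they were Phlda1 (0.74), Hsd3b5 (0.68) and Nudt7 (0.67), for Jak2 Rpl31-ps20 (0.69), Herc6 (0.68) and Vps50 (0.65), and for the dim Socs1 Atp2b3, Oas1d and Prdm11 (each 0.64), whose r was 0.43, 0.39 and 0.45 without the 2 arrays farthest from the median of Socs1. For Il6 they were the dim genes Mcpt2 (0.72), Csn2 (0.71) and Col5a2 (0.71), whose r was 0.42, 0.53 and 0.52 without the 2 arrays farthest from the median of Il6.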
